A study of Mus musculus with 7 samples.

Results

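Isl1, Six3, Ebf1, Zfp503, Foxp1 and Meis2 encode transcription factors of the lateral ganglionic eminence (LGE) and of the striatum that forms from it, and they are described here in mouse neocortex. The 6 genes were taken by symbol, as a measure of striatal tissue. Each had exactly 1 probe set with its symbol alone, and all 6 were among the 16144 genes that passed a filter on dim probe sets, of 19936 genes on the array. The filter was set on the mean over all 7 arrays.

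RNA of whole neocortex from C57BL/6 mice was hybridised to 7 one-colour arrays, 1 per sample, in 2 groups. The 4 CKO samples carry the genotype COUP-TFI_Nex-Cre, and the 3 WT samples are wild type with no further allele named. Nex-Cre acts from the Neurod6 locus in postmitotic glutamatergic neurons, and COUP-TFI is the nuclear receptor encoded by Nr2f1. No label used here gives age or sex. Nor does any say whether arrays came from different animals, so every p-value rests on array-to-array spread, which may be technical. Arrays carry names made of genotype and label number: CKO 1, CKO 4, CKO 34 and CKO 43, and WT 6, WT 27 and WT 38. Levels are log2 signals, a difference is the CKO mean minus the WT mean, and a lot is a set of arrays whose identifiers share their leading digits. Lot 1 holds CKO 1 and CKO 4, lot 2 holds CKO 34, CKO 43, WT 27 and WT 38, and lot 3 holds WT 6, so lots 1 and 3 hold 1 genotype each. Y-linked signal was 5.87 on CKO 43 and between 9.84 and 10.23 on the other 6 arrays.

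The LGE is a progenitor zone of the ventral telencephalon that lies next to the developing neocortex. Its progenitors express Gsx2 and Dlx genes and give rise to the GABAergic projection neurons of the striatum, which divide into a direct pathway with the dopamine receptor Drd1 and an indirect pathway with Drd2. Isl1 and Ebf1 are known for direct pathway neurons and Six3 for indirect pathway neurons, while Foxp1 and Meis2 are also expressed in neurons of the neocortex. These GABAergic neurons are not the cells in which Nex-Cre is known to act.

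Neocortical identity was checked by its markers. Of 12 markers of neocortical glutamatergic neurons 10 were on the array with 1 symbol, and all 10 were tested; Tbr1 averaged 12.77 in CKO and 12.63 in WT, and Neurod2 13.13 in both. The target gene Nr2f1 had 10.63, 10.79, 10.60 and 10.70 on CKO 1, CKO 4, CKO 34 and CKO 43, against 11.08, 11.16 and 10.88 on WT 6, WT 27 and WT 38. Neurod6 had 12.59, 12.72, 12.65 and 12.69 on the same CKO arrays, against 12.77, 12.97 and 12.83 on the WT arrays. Both genes lay lower on every CKO array than on any WT array, by -0.36 (SE 0.0738) and -0.20 (SE 0.0567), with adjusted p-values of 0.435 and 0.711 in limma. No source used here places the Nr2f1 probe set inside or outside the deletion, so its level does not check the labels. In tissue RNA, fewer cells of a type and less RNA per cell cannot be told apart.

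Among pairs of the factors named at the start, Isl1 and Six3 had the most closely matched values over the arrays. Their promoters are shown for this reason. Each is the 250 bases before the start site, 5′ to 3′ on the gene's own strand, from RefSeq on build GRCm38.p6. Capitals mark a match to TGACAG, the core bound by MEIS homeodomain proteins such as the one encoded by Meis2. The Isl1 stretch is chr13:116309689-116309938 on the minus strand and the Six3 stretch is chr17:85620584-85620833 on the plus strand.
Isl1: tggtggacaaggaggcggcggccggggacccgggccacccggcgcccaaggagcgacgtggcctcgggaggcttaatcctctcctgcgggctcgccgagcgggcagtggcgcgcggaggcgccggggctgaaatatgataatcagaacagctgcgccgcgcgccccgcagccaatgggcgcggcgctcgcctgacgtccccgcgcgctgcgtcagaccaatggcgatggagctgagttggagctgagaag
Six3: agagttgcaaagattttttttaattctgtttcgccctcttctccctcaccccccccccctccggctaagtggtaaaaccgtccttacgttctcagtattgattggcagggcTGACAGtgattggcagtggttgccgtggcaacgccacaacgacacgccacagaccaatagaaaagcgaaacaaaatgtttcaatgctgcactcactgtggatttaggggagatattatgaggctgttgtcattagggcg

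Promoters of all 6 genes were in the RefSeq table, with 9 start sites in all, and were searched on both strands for 4 motifs. TGACAG matched in Six3, at positions -139 to -134 from the start site, and on the other strand at 1 of the 3 start sites of Foxp1. The share of all 32851 promoters of this length that hold it is 15.9%. AGGTCA, the core element of COUP-TF and other nuclear receptors, matched at none of the 9 start sites and is held by 14.0% of all promoters. The palindrome bound by EBF proteins, TCCC and GGGA with 2 bases between them (0.779% of all promoters), and GTAAACA, the forkhead core (3.17%), had no match either. No motif overlapped another. The Isl1 stretch has a GC content of 71.2% and the Six3 stretch 48.8%, against a median of 52.4% over all promoters.

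Isl1, Ebf1, Six3 and Zfp503 had higher means in CKO than in WT, and Foxp1 and Meis2 had nearly equal means. None of the 6 passed an adjusted p of 0.05 over all 16144 genes with limma, where 0.0248% of all genes did (0.0124% higher and 0.0124% lower in CKO). At an unadjusted p under 0.05, 4 of the 6 were higher in CKO and 0 lower, against 4.17% of all genes higher, 2.61% lower and 6.79% in either direction. The median difference of the 6 was 0.37, and that of all genes tested was 0.01. The 6 genes were put together with earlier results of these data in view, so this count adds no separate support.

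Isl1 (probe set 10412335), a LIM homeodomain factor of direct pathway and cholinergic neurons of the striatum, had 8.86, 7.74, 8.70 and 8.73 on CKO 1, CKO 4, CKO 34 and CKO 43. It had 7.91, 7.23 and 7.89 on WT 6, WT 27 and WT 38. CKO 1, CKO 34 and CKO 43 stood above every WT array, while CKO 4 lay below WT 6 and WT 38, so the groups overlapped. In CKO its mean was 8.51 ± 0.516 (SD, n = 4), against 7.68 ± 0.390 (SD, n = 3) for WT. The genotypes differed by 0.83 (SE 0.281), or 1.78-fold, with an adjusted p of 0.711 in limma. Without CKO 4 the difference was 1.08, without WT 27 it was 0.60, and within lot 2 it was 1.16.

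Six3 (probe set 10447288), a homeodomain factor that directs the differentiation of indirect pathway neurons, had 8.52, 7.96, 8.46 and 8.41 on CKO 1, CKO 4, CKO 34 and CKO 43. It had 7.98, 7.48 and 8.06 on WT 6, WT 27 and WT 38. The same 2 arrays were lowest in their genotypes, CKO 4 and WT 27, and CKO 4 again lay below WT 6 and WT 38. In CKO its mean was 8.34 ± 0.256 (SD, n = 4), against 7.84 ± 0.316 (SD, n = 3) for WT, and the genotypes differed by 0.50 (SE 0.170, adjusted p 0.711 in limma). Without WT 27 the difference was 0.32, without CKO 4 it was 0.62, and within lot 2 it was 0.66.

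Ebf1 (probe set 10375360), a helix-loop-helix factor needed for direct pathway neurons to differentiate, had 9.77, 9.53, 10.47 and 9.90 on CKO 1, CKO 4, CKO 34 and CKO 43. It had 9.18, 8.87 and 9.34 on WT 6, WT 27 and WT 38. Every CKO array lay above every WT array, and CKO 34 stood highest. In CKO its mean was 9.92 ± 0.400 (SD, n = 4), against 9.13 ± 0.237 (SD, n = 3) for WT, and the genotypes differed by 0.79 (SE 0.207), or 1.73-fold, with an adjusted p of 0.694 in limma. Without CKO 34 the difference was 0.60, and within lot 2, which holds the highest and the lowest array, it was 1.08.

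Zfp503 (probe set 10418038), a zinc finger repressor of the developing striatum also called Nolz1, had 8.81, 8.71, 8.79 and 8.95 on CKO 1, CKO 4, CKO 34 and CKO 43. It had 8.57, 8.50 and 8.65 on WT 6, WT 27 and WT 38. In CKO its mean was 8.81 ± 0.1 (SD, n = 4), against 8.57 ± 0.0753 (SD, n = 3) for WT. The groups did not overlap, but the lowest CKO array and the highest WT array, CKO 4 and WT 38, were close to each other. The difference was 0.24 (SE 0.0631, adjusted p 0.690 in limma), and 0.30 within lot 2. Ebf1 and Zfp503 were the 2 of the 6 genes whose groups did not overlap with CKO higher, against 5.39% of all genes tested; 2.99% had no overlap with CKO lower and 8.38% in either direction.

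Foxp1 (probe set 10546661), a forkhead factor of striatal projection neurons and of neocortical neurons, had 10.72, 10.56, 10.80 and 10.69 on CKO 1, CKO 4, CKO 34 and CKO 43. It had 10.71, 10.76 and 10.78 on WT 6, WT 27 and WT 38. In CKO its mean was 10.69 ± 0.0989 (SD, n = 4), against 10.75 ± 0.0382 (SD, n = 3) for WT, and all WT arrays lay within the range of the CKO arrays. The difference was -0.06 (SE 0.0577, adjusted p 0.826 in limma), with a 95% interval from -0.19 to 0.08. Without CKO 4 it was -0.01.

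Meis2 (probe set 10486041), a homeodomain factor of LGE progenitors and striatal neurons that is also expressed in neocortex, had 13.27, 13.26, 13.35 and 13.25 on CKO 1, CKO 4, CKO 34 and CKO 43. It had 13.20, 13.21 and 13.29 on WT 6, WT 27 and WT 38. In CKO its mean was 13.28 ± 0.0467 (SD, n = 4), against 13.23 ± 0.0517 (SD, n = 3) for WT. The groups overlapped, since WT 38 lay above all CKO arrays but CKO 34. The difference was 0.05 (SE 0.0436, adjusted p 0.807 in limma), with a 95% interval from -0.05 to 0.15; without CKO 34 it was 0.03. The intervals of Foxp1 and Meis2 lay below that of Ebf1, from 0.31 to 1.26. That of Isl1 ran from 0.18 to 1.47, that of Six3 from 0.11 to 0.89 and that of Zfp503 from 0.10 to 0.39.

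**Figure D1:**
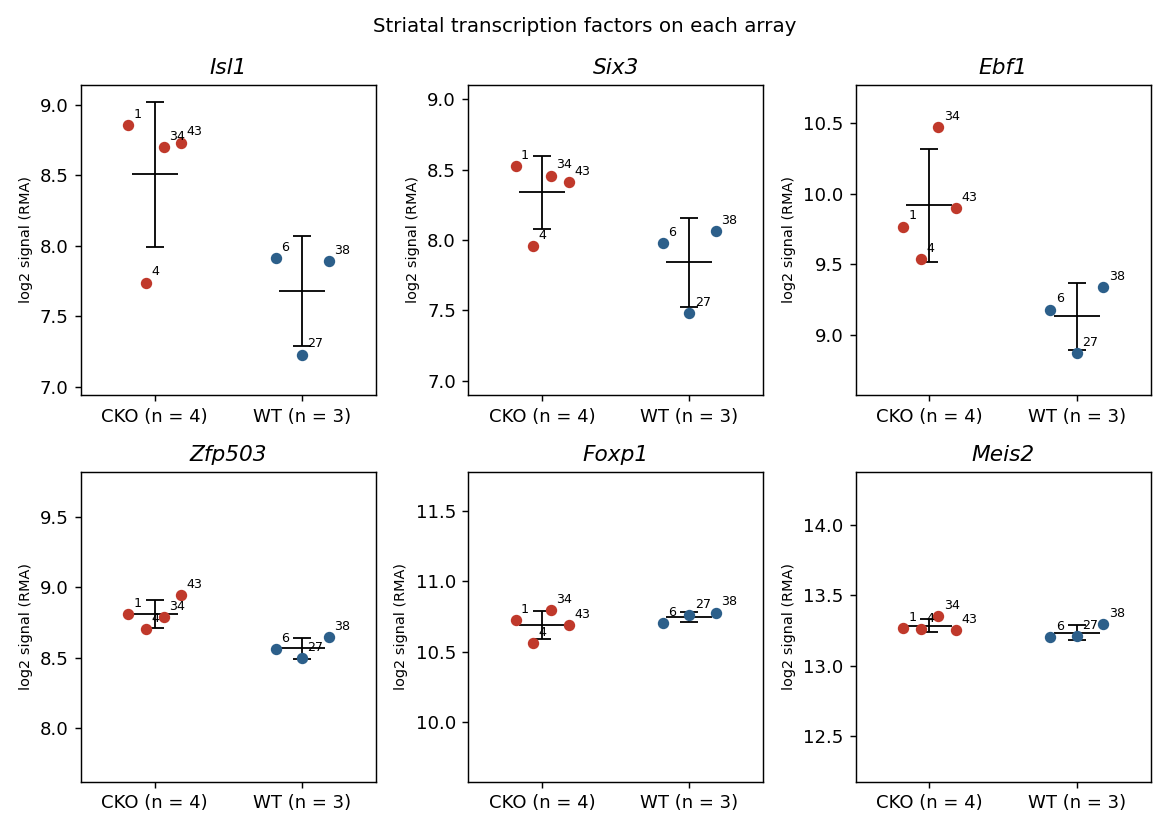
Log2 signal (RMA) of each gene on the 4 CKO arrays (red, left) and the 3 WT arrays (blue, right), with array numbers beside the points and the mean ± SD in black; every panel spans the same number of log2 units. CKO 4 and WT 27 are the lowest of their genotypes for Isl1, Six3, Ebf1 and Zfp503, and the points of Foxp1 and Meis2 lie close together.

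**Figure D2:**
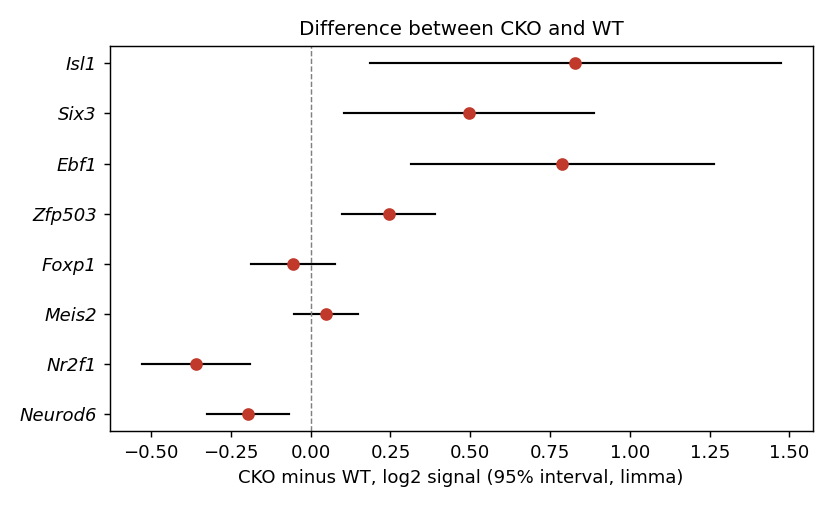
Difference between CKO and WT in log2 signal with limma's 95% interval, for the 6 genes and for Nr2f1 and Neurod6. The intervals of Isl1, Six3, Ebf1 and Zfp503 lie above 0 before adjustment, those of Foxp1 and Meis2 include 0, and those of Nr2f1 and Neurod6 lie below 0.

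Isl1, Six3 and Ebf1 varied strongly between arrays of the same genotype, and the other 3 genes less. Over the 7 arrays Isl1 had an SD of 0.617, Ebf1 of 0.526 and Six3 of 0.369, larger than those of 99.9%, 99.9% and 99.6% of the genes tested. With genotype means removed these shares were 99.8% for Isl1, 99.5% for Ebf1 and 99.1% for Six3, and 64.5% for Zfp503. Zfp503 had an SD of 0.155, Foxp1 of 0.079 and Meis2 of 0.0515, and the shares of genes with a smaller SD were 91.9%, 52.3% and 24.8%. The range between the CKO arrays was 1.12 for Isl1, which is wider than the difference between the genotypes.

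The 6 genes gave 15 pairs, and each was correlated over the 7 arrays with an exact permutation test over 5040 pairings, two-sided. Isl1 and Six3 had a Pearson r of 0.98 (exact p = 0.000794) and a Spearman rho of 0.93 (exact p = 0.00675). After Benjamini-Hochberg adjustment over the 15 pairs this was the 1 pair past 0.05 with Pearson (adjusted p = 0.0119), and no pair passed with Spearman (smallest adjusted p = 0.0923, 5 pairs with an exact p under 0.05). The genes were put together with their joint variation over these arrays in view, so these p-values describe the pairs and are no separate support. Their r was 0.98 without the 2 arrays farthest from the Isl1 median, CKO 1 and CKO 43. It was 0.96 on deviations from the genotype means, and between 0.98 and 0.99 with each array left out. The adjusted call was lost without CKO 1, without CKO 4 or without WT 27. The Isl1 values left an empty stretch between 7.91 and 8.70, with 3 arrays above it and 4 below, too few on either side for a coefficient of their own, as are the 4 arrays of lot 2.

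Zfp503 and Ebf1 followed Isl1 and Six3 less tightly. Zfp503 had an r of 0.88 with Isl1 (exact p = 0.0141) and 0.87 with Six3 (exact p = 0.0143), with rho of 0.82 (exact p = 0.0341) and 0.79 (exact p = 0.048). Ebf1 had an r of 0.84 with Isl1 (exact p = 0.0175) and 0.86 with Six3 (exact p = 0.0163), with rho of 0.71 (exact p = 0.0881) and 0.79 (exact p = 0.048). Each of these 4 pairs had an adjusted p of 0.0524 with Pearson. Leaving out the 2 arrays farthest from the Isl1 or Six3 median gave an r of 0.84 and 0.81 for Zfp503 and 0.93 and 0.89 for Ebf1. On deviations from the genotype means the coefficients were 0.73 and 0.70 for Zfp503 and 0.64 and 0.68 for Ebf1. Ebf1 and Zfp503 had an r of 0.80 with each other (exact p = 0.0298, adjusted p = 0.0638; rho 0.89, exact p = 0.0123), 0.98 without CKO 34 and WT 27, and 0.39 on deviations from the genotype means.

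Meis2 and Foxp1 did not share this order of arrays. Meis2 had an r of 0.83 with Ebf1 (exact p = 0.0266, adjusted p = 0.0638, with rho 0.64 and exact p = 0.139). This r was 0.33 without CKO 34 and WT 27, the 2 arrays farthest from the Ebf1 median. With 1 array left out it was lowest without CKO 34, at 0.59. On deviations from the genotype means, with all arrays, it was 0.82, the highest of Ebf1 with any of the 6 genes. With Isl1 the r of Meis2 was 0.55 (exact p = 0.213, with rho 0.29 and exact p = 0.556), and 0.32 on these deviations. With Six3 it was 0.63 (exact p = 0.131, with rho 0.61 and exact p = 0.167), and 0.45 on these deviations. Foxp1 had coefficients between -0.14 with Zfp503 (exact p = 0.771; rho -0.21, exact p = 0.662) and 0.34 with Meis2 (exact p = 0.432; rho 0.57, exact p = 0.200). On deviations from the genotype means Foxp1 had 0.65 with Isl1 and 0.77 with Ebf1, and CKO 4 was the lowest of its genotype for all 3 and CKO 34 the highest for Foxp1 and Ebf1.

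**Figure D3:**
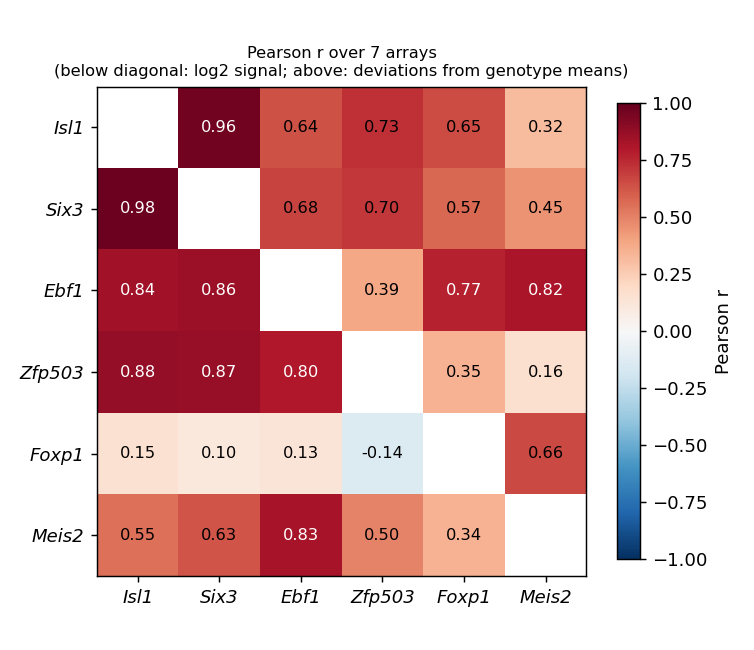
Pearson r between each pair of the 6 genes over the 7 arrays, from log2 signals below the diagonal and from deviations from the genotype means above it. Isl1 and Six3 have 0.98 below and 0.96 above the diagonal, and the row of Foxp1 below the diagonal lies between -0.14 and 0.15.

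CKO 4 and WT 27 were named with the choice of these genes, and their place was counted for every gene tested. CKO 4 was the lowest CKO array and WT 27 the lowest WT array for Isl1, Six3, Ebf1 and Zfp503, that is for 4 of the 6 genes. The same held for 793 of the 16144 genes, or 4.91%. The Cre driver gene Neurod6 and the target Nr2f1 had the reverse order, with CKO 4 the highest CKO array and WT 27 the highest WT array for both. The share of all genes with this reverse order was not counted. The mean of the neocortical glutamatergic markers, which include Neurod6, was 0.09 on WT 27 relative to the mean of the 7 arrays. It lay between -0.06 and 0.03 on the other 6. Among CKO arrays it was highest on CKO 4, at 0.0172, but close to the 0.0075 of CKO 34. Single markers differed from each other. The r with Isl1 had a median of -0.22 over the 10 markers, against -0.02 over all genes tested. It was lowest for Neurod6 (-0.90) and the glutamate transporter gene Slc17a7 (-0.80), and highest for Tbr1 (0.21) and Slc17a6 (0.21). On deviations from the genotype means it was -0.77 for Neurod6, -0.81 for Slc17a7, -0.66 for Tbr1 and -0.27 for Slc17a6. On these deviations it was also negative for Fezf2 (-0.76), Emx1 (-0.74) and Sla (-0.11). It was positive for Neurod2 (0.05), Cux2 (0.22) and Mef2c (0.39). The part of tissue make-up in the differences above was not tested.

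The genes closest to Isl1 and Six3 over the 7 arrays were mostly other factors of the ganglionic eminences. They were ranked by Pearson r among the 497 genes other than the 6 whose SD over the arrays was at least 0.2, and no p is given since they were picked as the highest. For Isl1 the first 5 were Dlx5 (r = 0.99), Six3os1 (0.98), Dlx2 (0.98), Gsx2 (0.97) and Slc18a2 (0.96). Gsx2 is the homeobox gene that specifies LGE progenitors, Dlx2 and Dlx5 are homeobox genes of the GABAergic lineage, and Slc18a2 encodes the vesicular monoamine transporter. For Six3 the first 5 were Gsx2 (0.97), Pou3f4 (0.97), Dlx5 (0.97), Six3os1 (0.96) and Dlx2 (0.95), where Pou3f4 encodes a POU homeodomain factor also called Brn4. On deviations from the genotype means the coefficients of these genes lay between 0.91 and 0.99.

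Dlx2 had 11.56, 10.97, 11.69 and 11.70 on CKO 1, CKO 4, CKO 34 and CKO 43, against 11.05, 10.74 and 11.12 on WT 6, WT 27 and WT 38. As for Isl1, CKO 4 lay among the WT arrays and WT 27 was lowest. Slc18a2 had 8.995, 7.54, 9.15 and 9.25 on the same CKO arrays and 8.02, 7.10 and 8.38 on the WT arrays, the same order with a wider spread. Their differences between CKO and WT were 0.51 (SE 0.178) and 0.90 (SE 0.446), with adjusted p-values of 0.716 and 0.727 in limma. Without WT 27 the difference of Slc18a2 was 0.53.

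Six3os1, a transcript of the strand opposite to Six3, had 7.75, 7.27, 7.61 and 7.65 on CKO 1, CKO 4, CKO 34 and CKO 43, against 7.20, 6.91 and 7.16 on WT 6, WT 27 and WT 38. Its difference was 0.48 (SE 0.117, adjusted p 0.655 in limma), close to the 0.50 of Six3. The 2 genes overlap in RefSeq, and no source used here says whether their probe sets keep the strands apart, so the signals cannot be taken to be separate.

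The 5 genes closest to Ebf1 shared Pou3f4 with those of Six3. They were 1700086L19Rik (r = 0.93), Dbpht2 (0.92), Rorb (0.92), the collagen gene Col1a2 (0.92) and Pou3f4 (0.90). Rorb, a nuclear receptor gene of layer 4 neurons in sensory cortex, had 10.60, 10.55, 10.99 and 10.55 on CKO 1, CKO 4, CKO 34 and CKO 43, against 10.22, 10.26 and 10.55 on WT 6, WT 27 and WT 38. Like Ebf1 it was highest on CKO 34. Its difference was 0.33 (SE 0.122, adjusted p 0.722 in limma).

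A list of 18 other transcription factors of the LGE and striatum had 17 tested, and all 17 had a higher mean in CKO, with a median difference of 0.15. Over all genes tested the share above 0 was 58.9%. With limma none passed an adjusted p of 0.05, and the smallest was 0.354, for Zfp521. Before adjustment 6 were higher with a p under 0.05, against 4.17% of all genes tested. Zfp521, a zinc finger gene of direct pathway neurons, differed by 0.24 (SE 0.0461), Bcl11b, which encodes CTIP2 of striatal and subcerebral neurons, by 0.15 (SE 0.0401) and Dlx5 by 0.39 (SE 0.116). Of the 17, Gsx2, Dlx1, Dlx2, Dlx5, Dlx6 and Sp9 had an r of at least 0.75 with Isl1, against 0.867% of all genes tested. These 6 were named after their values were seen.

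Genes of differentiated striatal neurons were mostly higher in mean in CKO too, but 1 of them had an r of at least 0.75 with Isl1. Of 18 tested, 15 had a higher mean in CKO, and the median difference was 0.08. With limma none passed, and the smallest adjusted p was 0.251. Before adjustment 6 were higher with a p under 0.05, against 4.17% of all genes tested. Ppp1r1b, which encodes the phosphatase inhibitor DARPP-32, had 10.33, 10.49, 10.43 and 10.21 on CKO 1, CKO 4, CKO 34 and CKO 43, against 9.92, 9.99 and 9.91 on WT 6, WT 27 and WT 38. For this gene CKO 4 was the highest array of all, and the groups did not overlap. Its r with Isl1 was 0.48, and -0.71 on deviations from the genotype means. The peptide gene Pdyn and the G protein gene Gnal had an r with Isl1 of 0.50 and 0.34, and of -0.15 and -0.53 on these deviations. Their differences were 0.24 (SE 0.0736) and 0.42 (SE 0.118).

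Drd2 was that gene, at 0.80, and at 0.77 on deviations from the genotype means. It had 8.58, 8.16, 8.89 and 8.50 on CKO 1, CKO 4, CKO 34 and CKO 43, against 8.31, 8.20 and 8.46 on WT 6, WT 27 and WT 38. CKO 4 was the lowest array of all, below WT 27. The difference was 0.21 (SE 0.151, adjusted p 0.763 in limma). Drd1, the receptor of the direct pathway, had an r of 0.27 with Isl1, and of -0.59 on deviations from the genotype means. Its difference was 0.19 (SE 0.066), with every CKO array above every WT array. CKO 4 was the lowest CKO array and WT 27 the lowest WT array for 6 of the 17 LGE and striatal factors and for 1 of the 18 genes of differentiated neurons. The share over all genes tested was 4.91%.

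**Figure D4:**
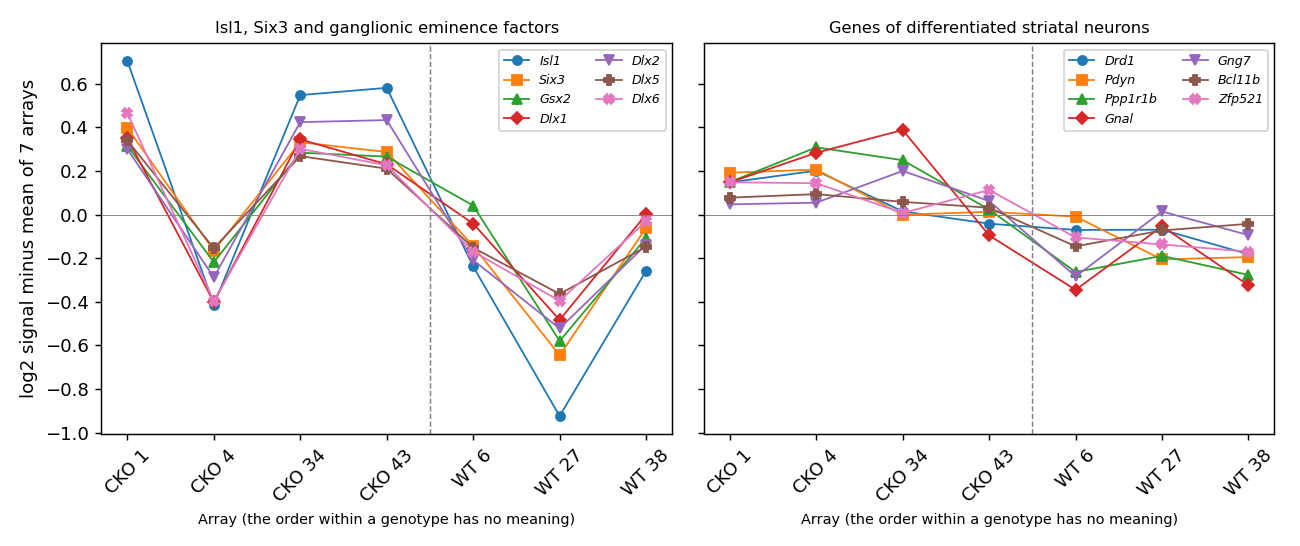
Log2 signal of single genes relative to their mean over the 7 arrays, with CKO arrays left of the dashed line and WT arrays right of it; lines only connect the points of 1 gene, and the genes of both panels were picked after their values were seen. On the left, CKO 4 and WT 27 are the low points of Isl1, Six3, Gsx2 and Dlx genes. On the right CKO 4 is not low for Ppp1r1b, Drd1, Pdyn or Zfp521. Of the 18 tested genes of differentiated neurons, CKO 4 was the lowest CKO array for 4, Drd2, Pde10a, Adcy5 and Rasgrp2, which are not shown. Bcl11b and Zfp521 on the right are from the list of other LGE and striatal factors.

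Split by pathway, 6 of 6 direct pathway genes and 5 of 6 indirect pathway genes were higher in mean in CKO, and the median differences were 0.16 and 0.18. With limma none passed, while 3 direct and 2 indirect pathway genes were higher with a p under 0.05 before adjustment, against 4.17% of all genes tested. They were Drd1, Pdyn and Zfp521, and Sp9 and Gpr6. All of them were already counted in the 2 lists above, so they are no separate agreement. Sp9, a zinc finger factor of indirect pathway neurons, differed by 0.35 (SE 0.126) and had an r of 0.90 with Isl1. The orphan receptor gene Gpr6 differed by 0.14 (SE 0.0539) and the enkephalin gene Penk by 0.28 (SE 0.148), or 0.14 without CKO 34. Tac1, a peptide gene of the direct pathway, was below the filter and was not tested. Isl1 also marks cholinergic neurons, and of 5 genes of these tested, 4 were higher in mean in CKO, with a median difference of 0.11 and 0 under 0.05 before adjustment in limma. Slc18a3, the vesicular acetylcholine transporter gene, differed by 0.11 and the synthetic enzyme gene Chat by 0.05; without WT 27 the value of Slc18a3 was 0.04, and without CKO 4 that of Chat was 0.02. Lhx8 differed by 0.18 and was at 8.01 on CKO 1 against 7.27 to 7.35 on the other CKO arrays; without CKO 1 it differed by 0.0046. The signs of Chat and Lhx8 turned within lot 2.

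Relatives and partners of the 6 factors were counted next. Of 14 relatives tested, 11 were higher in mean in CKO, and the median difference was 0.07. Before adjustment 3 were higher with a limma p under 0.05, against 4.17% of all genes tested. Zfp703, the closest relative of Zfp503, differed by 0.28 (SE 0.0736), Six2 by 0.18 (SE 0.0485) and Meis3 by 0.10 (SE 0.0349), each without overlap and each without passing with limma (adjusted p 0.711, 0.711 and 0.722). Ebf2 and Ebf3, which mark Cajal-Retzius cells, differed by 0.01 (SE 0.0526) and -0.01 (SE 0.0631), beside the 0.79 of Ebf1. Meis1 had an r of 0.85 with Isl1 and a difference of 0.14 (SE 0.130). Of 16 tested partners, such as the LIM cofactors, LMO proteins, PBX proteins and Groucho corepressors, 8 were higher and 8 lower in mean in CKO, with a median difference of -0.0049. Zfp423, a zinc finger partner of EBF proteins, differed by 0.16 (SE 0.0534). Lmo2, Lmo3 and Lmo4, whose products compete for LIM cofactors, were lower on every CKO array than on any WT array, with differences of -0.12, -0.14 and -0.10, the direction in which 2.99% of all genes had no overlap. None passed with limma (smallest adjusted p 0.354, for Zfp521, also counted among the other LGE and striatal factors). Lmo2 and Lmo4 were named after their values were seen.

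Markers of other cells that a neocortical dissection could hold were set beside the 6 factors. Of 9 tested markers of the medial ganglionic eminence and its interneurons, 4 were higher and 5 lower in mean in CKO, and the median difference was -0.01. CKO 4 was the lowest CKO array and WT 27 the lowest WT array for 4 of the 9, Npy, Erbb4, Gad1 and Gad2. This held for 4.91% of all genes tested, and not for Nkx2-1, Lhx6, Lhx8, Sst or Sox6. The list's mean on CKO 4, -0.15 relative to the 7 arrays, was the lowest of all arrays. The GABA synthesis genes Gad1 and Gad2, which striatal neurons and interneurons share, had an r with Isl1 of 0.84 and 0.91, and differences of 0.13 (SE 0.151) and 0.29 (SE 0.198). Npy was lower in CKO, by -0.51 (SE 0.0644, adjusted p 0.1 in limma), while Nkx2-1 differed by 0.23 and Erbb4 by -0.15.

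Mural and endothelial markers, included since pericytes express Ebf1, had higher means in CKO for 8 of 11 genes, and a median difference of 0.03. An r of at least 0.75 with Ebf1 was found for 0 of the 11, against 1.15% of all genes tested, and the pericyte marker Pdgfrb had the highest, 0.71. Pecam1 differed by 0.14, Esam by 0.09 and Kcnj8 by 0.07. Of 8 tested markers of meninges and choroid plexus all 8 were higher in mean in CKO, against 58.9% of all genes tested. Their median difference was 0.14. Before adjustment 3 of the 8 were higher with a limma p under 0.05, against 4.17% of all genes tested. Col1a2 (0.33, SE 0.104), Col1a1 (0.31, SE 0.119) and Slc6a13 (0.22, SE 0.0644) had the smallest p-values. An r of at least 0.75 with Ebf1 was found for 2 of these 8, Col1a2 (0.92) and Col1a1 (0.89), and without CKO 34 the difference of Col1a1 was 0.21. The mean of the 8 lay between -0.04 and 0.20 on the CKO arrays and between -0.15 and 0.00 on the WT arrays, and their part in the differences of the 6 factors was not tested. Of 8 Cajal-Retzius markers 3 were higher in mean in CKO (median difference -0.01); Reln differed by -0.07, Ndnf by -0.13 and Lhx1 by 0.06. Of 9 markers of septum and thalamus 7 were (median difference 0.08); Tcf7l2 differed by 0.08, Zic2 by 0.20 and Lhx9 by 0.12. Of the 10 neocortical glutamatergic markers 4 were (median difference -0.04); Tbr1 differed by 0.14 and Sla by -0.21. The mean of the septum and thalamus markers, relative to the 7 arrays, was 0.20 on CKO 1 and between -0.11 and 0.05 on the other arrays. Without CKO 1 the difference of Zic2 was 0.05. The sign of Zic2 turned within lot 2, and that of Lhx1 without CKO 1, without WT 38 or with array weights. No gene of these lists passed with limma.

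**Figure D5:**
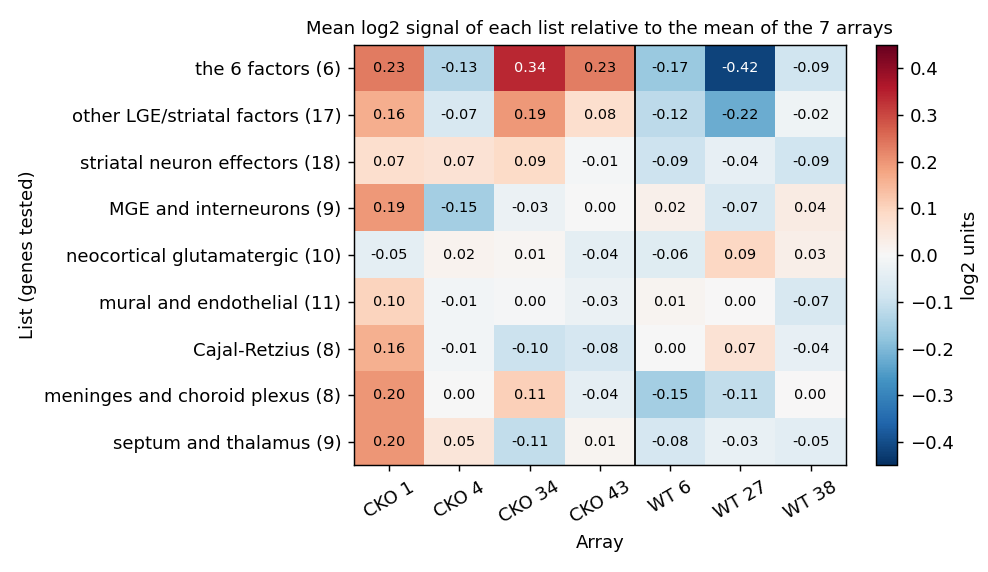
Mean log2 signal of the genes tested in each list, relative to their mean over the 7 arrays, with the 4 CKO arrays left of the black line and the 3 WT arrays right of it. The 6 factors range from -0.42 on WT 27 to 0.34 on CKO 34, the other LGE and striatal factors have the same sign on each array, and the effectors of striatal neurons lie between -0.09 and 0.09.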

How the data were processed

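Total RNA of 7 samples was extracted with Trizol, labelled with biotin and hybridised to Affymetrix arrays, per the labels. The submitters' processing notes name RMA and Affymetrix Expression Console, so the deposited log2 signals are taken as the authors' RMA output; no version or build is named. No column was identical to another, and the sorted columns were at most 0.0256 apart. The number of arrays limits the precision.

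Probe sets were named from the platform annotation. The brightest single-symbol probe set stood for a gene, and those with a mean under 6.84, the 25th percentile, were left out. CKO and WT were compared with limma 3.58.1 in R 4.3.3, with no covariate and Benjamini-Hochberg adjustment over 16144 genes at 0.05. SE and 95% intervals are limma's. Pairs of the 6 genes were tested by exact permutation. The fit was tested on simulated data. Alternatives concerned normalization, filter, probe sets, variance model, array weights, lot, Y-linked signal and leaving out each array.

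The 6 genes and all lists were chosen with earlier results of these data known. Named genes were the 6, Nr2f1, Neurod6, the 5 most like Isl1, Six3 and Ebf1, and the 3 with the smallest p in each list, or up to 4 past the threshold; others were named after their values were seen.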

Additional observations from a re-analysis of the deposited data

Results flagged for a closer look

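In 51 named genes the 4 CKO arrays were searched for 1 array whose gap to its neighbour took more than 0.829 of the range, a limit that chance passes in about 1 group of 20. It was passed for 7 genes, which are not independent of each other. CKO 4 was low for 3 of them: Isl1 at 7.74 against 8.70 to 8.86 on the other CKO arrays, Gsx2 at 7.77 against 8.25 to 8.30, and Slc18a2 at 7.54 against 8.995 to 9.25. CKO 34 was high for 3: Meis2 at 13.35 against 13.25 to 13.27, Penk at 8.87 against 8.31 to 8.36, and Rorb at 10.99 against 10.55 to 10.60. CKO 1 was high for Lhx8, at 8.01 against 7.27 to 7.35.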

How the results depend on the processing

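All 112 values of the 6 factors under the alternatives kept their direction and none passed an adjusted p of 0.05 (lowest 0.289); a filter at the 50th percentile left Isl1 and Six3 out. Differences ran from 0.60 to 1.16 for Isl1, 0.32 to 0.66 for Six3, 0.60 to 1.08 for Ebf1, 0.20 to 0.30 for Zfp503, -0.09 to -0.01 for Foxp1 and 0.03 to 0.08 for Meis2. The number of the 6 with an unadjusted p under 0.05 was 4, but 2 of the 4 tested with that filter and 2 without WT 27, where Isl1 had 0.082 and Six3 0.0764. Over all genes 4 passed; 1 passed with cyclic loess, array weights, Y-linked signal as a covariate or all probe sets, and 0 passed in limma with lot as a fixed block or within lot 2, where 611 and 486 were under 0.05 before adjustment. Leaving out 1 array gave 1 to 6 genes, with 6 without CKO 1 and 1 without any other array. Pairs past the threshold numbered 1, and 0 with Spearman (5 at an exact p under 0.05); leaving out 1 array gave 0 to 2, with 2 without CKO 34 and 0 without CKO 1, CKO 4 or WT 27. Leaving out 1 array moved the difference by over 1.5 times, or turned it, for 23 of the 51 named genes. Of 957 values of named genes 948 kept their direction. Those that turned were Lhx8 (-0.0103), Chat (-0.0083) and Zic2 (-0.0187) with lot as a fixed block and within lot 2, and Lhx1 with array weights (-0.0126), without CKO 1 (-0.0003) and without WT 38 (-0.0583; without WT 27 it was 0.1603); the cause was not tested. No paired analysis was possible because the genotypes share no numbers.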
